A study of Mus with 2 samples.

Results

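The cells described here are Aplnr-positive endothelial cells of the newborn mouse kidney, 797 of 11369 cell barcodes kept in 2 libraries. They were chosen by their own counts. A barcode was kept if it held at least 2000 UMIs (unique molecular identifiers, 1 per captured RNA molecule) with at most 10% of them in mitochondrial genes. A kept barcode was taken when the endothelial genes Pecam1 and Cdh5 together had at least 2 UMIs and Aplnr at least 1, with at most 1 UMI of the stromal collagen Col3a1 and 0 of the epithelial gene Epcam. Replicate 1 gave 468 such cells of 6220, or 7.52% (95% exact binomial interval 6.88 to 8.21). Replicate 2 gave 329 of 5149, or 6.39% (5.74 to 7.09). The mean was 6.96% ± 0.80 (SD, n = 2). These intervals, and all others below, cover counting error only.

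Aplnr encodes the receptor for the secreted peptide apelin. In growing vessels it marks veins and the capillary plexus, the network of immature capillaries that is remodelled into arteries, veins and organ-specific capillaries, and it is lost as endothelial cells take on arterial identity. Apelin itself (Apln) is made by tip cells, which lead vessel sprouts. Plvap forms the diaphragms of fenestrated capillaries, Tek (Tie2) is the endothelial receptor for angiopoietins, and Cyp26b1 degrades retinoic acid.

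Both libraries came from kidneys at postnatal day 0 (P0) of the genotype Rbpj c/- ; Foxd1cre/+. Rbpj is the transcription factor that Notch receptors bind once they are cleaved. Foxd1cre acts in the precursors of the kidney's interstitium, so the floxed Rbpj allele is deleted there and not by design in endothelium, while the other Rbpj allele is null in every cell. The series also names 2 controls, Rbpj c/+ ; Foxd1cre/+, which were not analysed here, so no effect of the mutation can be read from these values. Whole kidney RNA was read with droplet 3' libraries. The labels do not say whether the libraries came from separate animals. Among the Aplnr-positive cells, the X-inactivation transcript Xist was at 1053 CPM (counts per 1e+06 UMIs summed over the group) in replicate 1 and 0 in replicate 2. All p-values measure only how far differences between groups of cells varied between these 2 libraries.

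The whole matrices held 163405630 and 135436576 UMIs, most barcodes in them being empty droplets. The Aplnr-positive cells had a median of 9133 UMIs in replicate 1 and 10227 in replicate 2. The 2 libraries shared 6 kept barcode sequences, of which 0 belonged to Aplnr-positive cells. A second endothelial group served as the comparison: 285 and 162 barcodes with at least 2 UMIs of Pecam1 and Cdh5 and 0 of Aplnr, with medians of 7872 and 7871.5 UMIs. A barcode listed at 0 for Aplnr can still be a cell that makes it. This comparison group was gated without the Col3a1 and Epcam limits. Its summed CPM of 10 stromal markers (Col3a1 of the rule included) was 908 and 787, against 46.4 and 32.9 in the Aplnr-positive cells, whose Lum (lumican) count was 0. With the same limits placed on it (238 and 136 barcodes), the sum was 68.6 and 34.9. Many of the differences below are therefore also given against the group under equal limits. The limits made that group shallower, with medians of 6995 and 6709 UMIs. Barcodes over 50000 UMIs held 10.7% and 4.51% of its UMIs, against 27.6% and 31.8% as gated and 26.1% and 13.4% in the Aplnr-positive cells. The part of depth in the differences was not tested beyond the settings below that limit or thin it.

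The labelled markers were examined first. Plvap reached 862 and 815 CPM in the Aplnr-positive cells of replicates 1 and 2. It was at 274 and 200 in Aplnr-zero endothelial cells, 377 and 324 in those under equal limits, and 2.86 and 2.09 in barcodes outside the endothelial gate. Both Aplnr-positive values lay above all others, and Plvap was higher by a log2 fold change of 1.95 ± 0.12 (SE; adjusted p = 6.75e-04, quasi-likelihood test of edgeR, Benjamini-Hochberg adjusted over all genes), or 1.33 under equal limits and 0.78 with barcodes thinned to 4600 UMIs before gating. With every barcode thinned to 4600 UMIs, 92.9% and 93.0% of Aplnr-positive cells held a Plvap UMI, against 58.1% and 54.8% of Aplnr-zero endothelial cells and 1.46% and 0.885% of barcodes outside the gate. Without thinning the shares were 96.2% and 96.4% against 67.4% and 66.7%. The thinning left out 45 and 31 Aplnr-positive and 56 and 38 Aplnr-zero cells that were shallower.

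Tek stood at 251 and 238 CPM in the Aplnr-positive cells and at 107 and 69.3 in Aplnr-zero endothelial cells. The groups did not overlap, and Tek was higher by 1.60 ± 0.14 on the log2 scale (adjusted p = 0.00143, edgeR's quasi-likelihood test), or 0.98 under equal limits. Cyp26b1 differed more between the libraries than between the groups. It was at 72.4 CPM in replicate 1 and 153 in replicate 2 of the Aplnr-positive cells, against 50.9 and 92.9 in Aplnr-zero endothelial cells and 61.9 and 159 under equal limits. Its log2 fold change of 0.76 ± 0.15 passed the test as gated (adjusted p = 0.0187, edgeR's quasi-likelihood test) and was 0.15, short of the threshold, under equal limits. Plvap and Tek thus separated the group on genes that the gate did not use, while Cyp26b1 did not do so beyond the spread once the limits were equal. The label's word plexus refers to position and form in the tissue, which dissociated cells do not keep. In GRCm38 (mm10), Aplnr lies on chromosome 2 at 85136360 to 85139923, Plvap on chromosome 8 at 71497753 to 71511806, Tek on chromosome 4 at 94739086 to 94874976 and Cyp26b1 on chromosome 6 at 84571414 to 84593908.

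**Figure D1:**
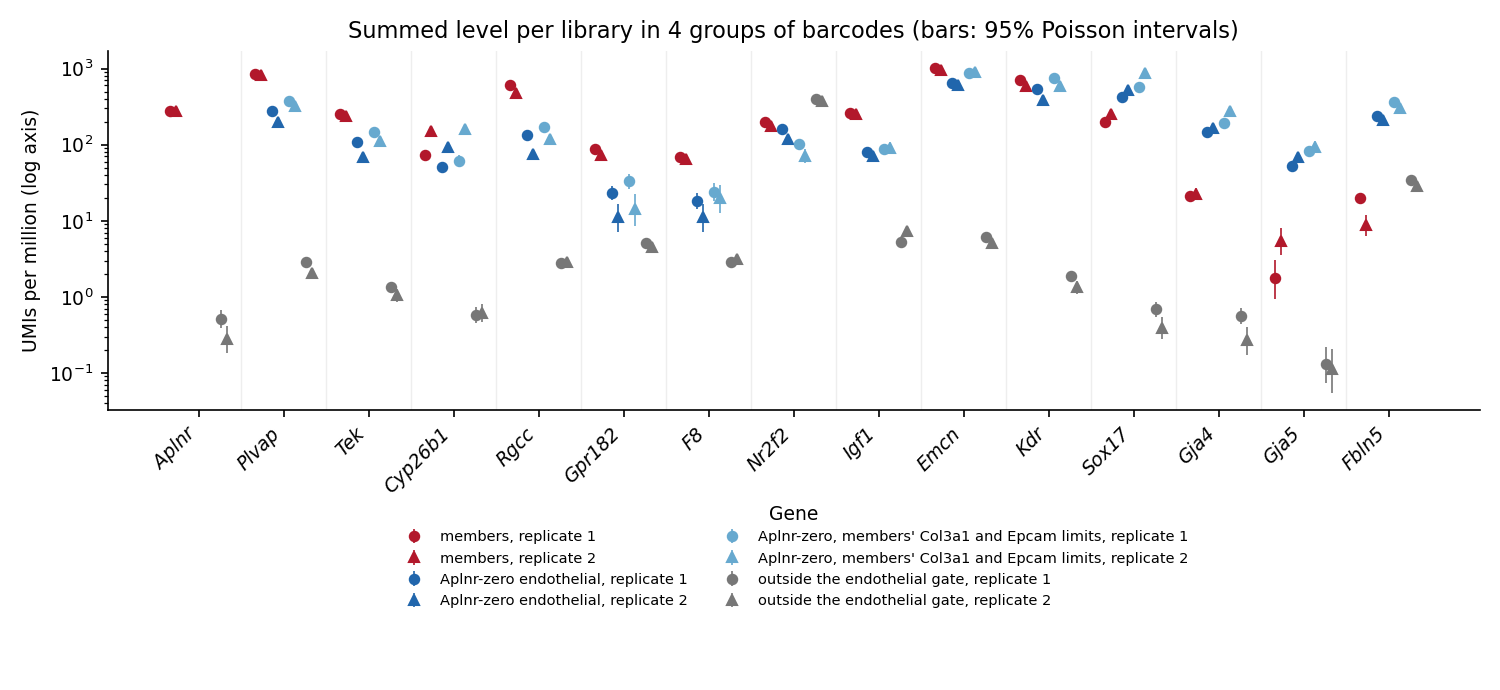
Summed level of 15 genes in CPM (log axis) in each library, for members (the Aplnr-positive cells), Aplnr-zero endothelial cells as gated and under the members' limits, and barcodes outside the endothelial gate; bars are 95% Poisson intervals and values of 0 are not drawn. Plvap, Tek, Rgcc and Igf1 are higher in members than in both Aplnr-zero groups in each library, Gja4, Gja5 and Fbln5 are lower, and Cyp26b1 follows the library more than the group.

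Aplnr itself, which chose the cells, had a median of 3 UMIs per cell in each library, with maxima of 34 and 23. Just inside the threshold, 113 and 74 cells held 1 Aplnr UMI. A further 155 and 107 cells held 2 or 3, and 200 and 148 held 4 or more. Plvap was at 707 and 648 CPM in cells with 1 Aplnr UMI, 804 and 837 with 2 or 3, and 919 and 854 with 4 or more. Tek went in the same order, at 186 and 178, then 253 and 234, then 265 and 257. The arterial transcription factor Sox17 ran the other way, from 269 and 358 CPM with 1 Aplnr UMI to 227 and 240 and then 176 and 225. Cells just outside the threshold, the Aplnr-zero cells under equal limits, had lower Plvap and higher Sox17 than each of these classes. The proliferation gene Mki67 also ran with Aplnr count. After thinning to 4600 UMIs, 18.7% and 22.8% of cells with 1 Aplnr UMI held Mki67, then 33.3% and 32.7%, then 39.2% and 44.8%, against 9.14% and 19.2% of Aplnr-zero cells under equal limits. Median depth was higher along the same classes in both libraries, from 7004 and 8304 UMIs to 13547 and 12674, and its part in these orders was not tested beyond the thinning.

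**Figure D2:**
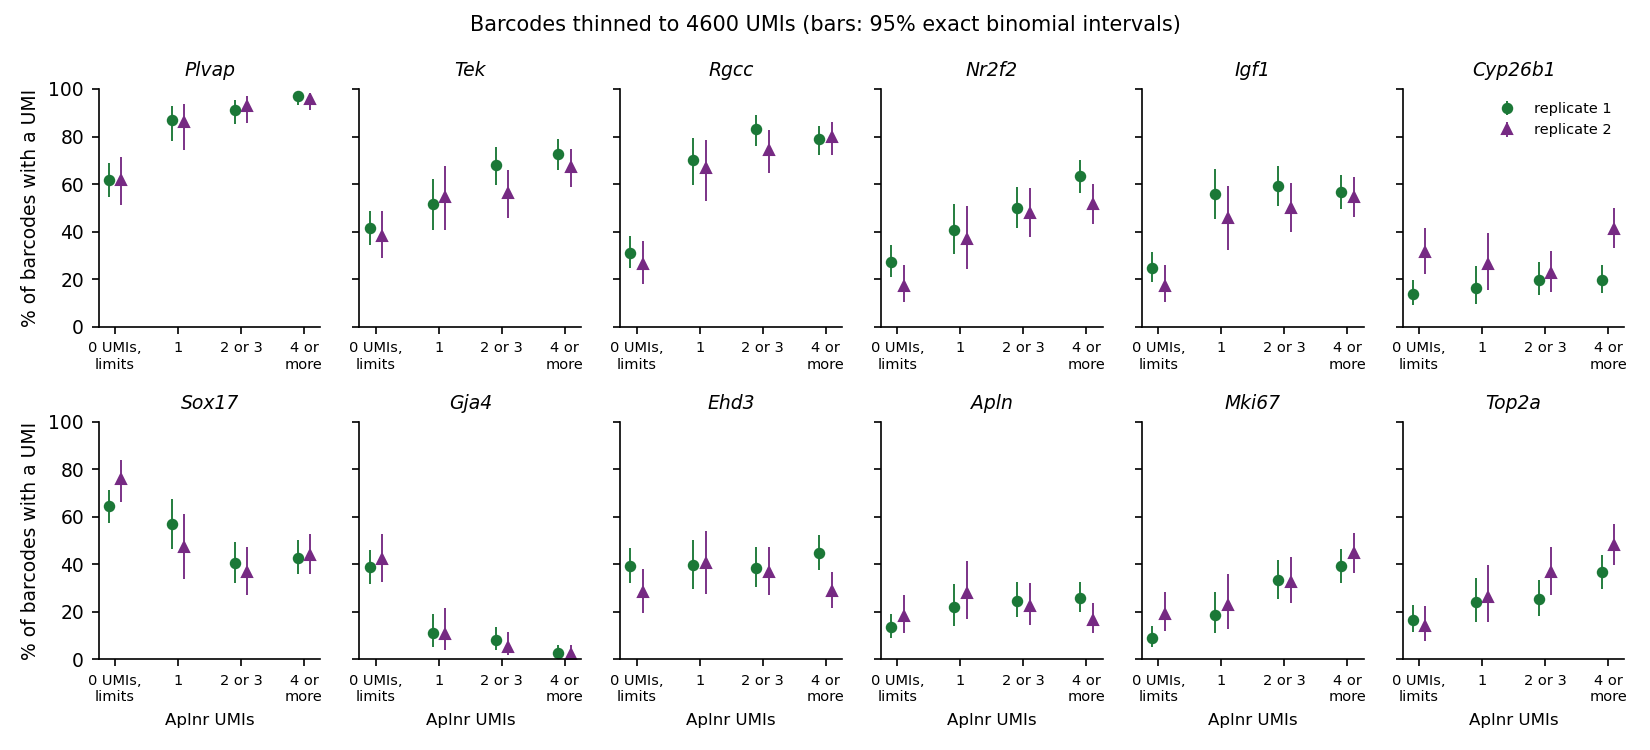
Percent of barcodes with a UMI of each of 12 genes after thinning to 4600 UMIs, by Aplnr UMIs per barcode (0, under the members' limits; 1; 2 or 3; 4 or more), with 95% exact binomial intervals, in replicates 1 and 2. Plvap, Tek and Nr2f2 are least frequent and Gja4 most frequent at 0 Aplnr UMIs, and Mki67 and Top2a are most frequent at 4 or more.

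Across the transcriptome, 1233 of 13555 genes tested (9.1%) were higher in Aplnr-positive than in Aplnr-zero endothelial cells and 1675 (12.4%) were lower, at an adjusted p under 0.05. Under equal limits, 980 of 13567 (7.22%) were higher and 1085 (8.0%) lower. The genes of the rule (Aplnr, Pecam1, Cdh5, Col3a1, Epcam) were not counted. The median log2 fold change over all genes tested was -0.00349. In these sums fewer cells that make a gene cannot be told apart from less RNA of it per cell. In 4 settings (as gated, under equal limits, under equal limits within 8000 to 30000 UMIs, and with barcodes thinned to 4600 UMIs before gating), 131 genes were called higher and 216 lower each time. In the third setting alone 692 were higher and 879 lower over all genes, and in the fourth 229 and 396. Counts for the gene lists below stand beside these numbers and the shares above.

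The genes with the largest increases as gated had varied roles. Rgcc, a regulator of the cell cycle that is abundant in capillaries, reached 609 and 484 CPM against 134 and 75.5 in Aplnr-zero cells. It was higher by 2.50 ± 0.22 on the log2 scale (adjusted p = 0.0015, edgeR's quasi-likelihood test), or 1.98 under equal limits. Gpr182, an endothelial scavenging receptor for chemokines, stood at 87.8 and 72.4 CPM against 23.5 and 11.1, a log2 fold change of 2.30, or 1.75 under equal limits. Coagulation factor VIII (F8) was at 68.1 and 64.7 CPM against 18.2 and 11.1, with log2 fold changes of 2.27 and 1.65. In each of these 3 genes, which were picked by their calls, both libraries' Aplnr-positive values lay above all Aplnr-zero values. The receptor phosphatase Ptpru (2.29), adenosine deaminase Ada (2.19), the carbonic anhydrase-related Car8 (2.08) and neurogranin Nrgn (2.06) were higher as well, and each passed the test under equal limits (1.85, 1.59, 2.01 and 1.87). So did Lhx6, Ccdc3, Nav3 and Ces2e, with log2 fold changes between 2.06 and 2.62 as gated. With barcodes thinned to 4600 UMIs before gating the increases were smaller, at 0.90 for Rgcc, 1.26 for Gpr182, 1.48 for F8, 1.23 for Ptpru, 0.77 for Ada, 0.97 for Car8 and 1.04 for Nrgn, which all passed, while Ces2e (0.84), Ccdc3 (0.76) and Nav3 (0.71) did not. Gm33370 (2.08) passed as gated and in neither of these settings. Growth factor Igf1 was at 259 and 256 CPM against 80.5 and 71.1, a log2 fold change of 1.88, or 1.61 under equal limits and 1.19 thinned. The transcription factor Irx3 was at 158 and 174 CPM against 59.3 and 41.3, or 1.84 in the first 2 settings and 1.01 thinned.

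Of the genes with the largest decreases, 5 kept their call under equal limits. These were the arterial kinase Bmx (-6.37, and -6.97 under equal limits), the collagen cross-linking enzyme Lox (-5.51 and -4.82), the matrix gene Postn (-5.64 and -3.41), the activin antagonist Fst and Gm9946. Fst and Gm9946 each had 1 UMI in the Aplnr-positive cells, and by direct ratio Aplnr-zero cells were 117-fold higher in Fst (95% interval 20.3 to 4713) and 164-fold higher in Gm9946 (28.7 to 6568). The other 7 (Sim1, Smoc2, Dcn, Sall3, Erbb4, Lhx1 and Spon1) did not, and the fitted log2 fold change of Erbb4, which has 2 and 1 UMIs in the Aplnr-positive cells, changed sign from -5.64 to 6.36. Dcn, for example, is a stromal gene and was at 0.962 and 0.628 CPM against 54.5 and 78.2, but against the group under equal limits its log2 fold change was -1.92 and short of the threshold. Sim1 was not detected in Aplnr-positive cells, which makes it at least 86.7-fold higher in Aplnr-zero cells as gated, counting the 2 libraries together against a floor of 3 UMIs.

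Genes shared by all endothelium separated the groups little once the limits were equal. Of 20 such genes, 16 were higher as gated, with a median log2 fold change of 0.60, and 2 were higher and 2 lower under equal limits, with a median of 0.00079. Tek and Cd34 made up the 2 higher. Among 14 capillary and venous genes, 10 were higher and 3 lower as gated, and 5 higher and 2 lower under equal limits. Nr2f2 (COUP-TFII), the transcription factor that holds venous identity, was at 196 and 174 CPM in Aplnr-positive cells. It was at 163 and 119 in Aplnr-zero cells and 103 and 71.5 under equal limits, so the difference widened from 0.52 to 1.13 on the log2 scale, past the threshold in both. Barcodes outside the endothelial gate also carried Nr2f2, as the plot of levels shows. The fatty acid carrier Fabp4 was abundant, at 10229 and 8638 CPM against 5061 and 4262. Its log2 fold change was 1.15 as gated, 0.55 under equal limits and 0.01 after thinning before gating. Vwf (-3.25), stored in larger vessels, and the cytokine receptor Lifr (-0.77) were lower as gated and under equal limits.

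Most arterial genes were lower. Of 18 tested, 13 were lower and 0 higher as gated (median log2 fold change -1.58), and all 18 were lower under equal limits (median -1.95). Over all genes, 12.4% were lower as gated and 8.0% under equal limits. The gap junction protein Gja5 was at 1.79 and 5.44 CPM in Aplnr-positive cells and at 52.2 and 68.4 in Aplnr-zero cells, a log2 fold change of -4.04 ± 0.30 (SE; adjusted p = 8.99e-04, edgeR's quasi-likelihood test). Gja4 was at 20.9 and 22.6 CPM against 146 and 167, a log2 fold change of -2.72. The chemokine Cxcl12, made by arterial endothelium, was at 18.5 and 50.03 CPM against 307 and 403 (-3.31), and the elastic fibre protein Fbln5 at 19.9 and 8.79 against 241 and 211 (-3.82). No Aplnr-positive value of these 4 genes reached an Aplnr-zero value. Under equal limits the log2 fold changes were -4.67 for Gja5, -3.32 for Gja4, -3.86 for Cxcl12 and -4.42 for Fbln5. Sox17 was less distant, at 201 and 251 CPM against 421 and 526 (-0.93, or -1.58 under equal limits). Efnb2, Dll4, Nrp1, Unc5b and Igfbp3, which mark both arteries and sprouting vessels, did not pass as gated (-0.34 to -0.13) and were between -0.74 and -0.52 under equal limits.

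**Figure D3:**
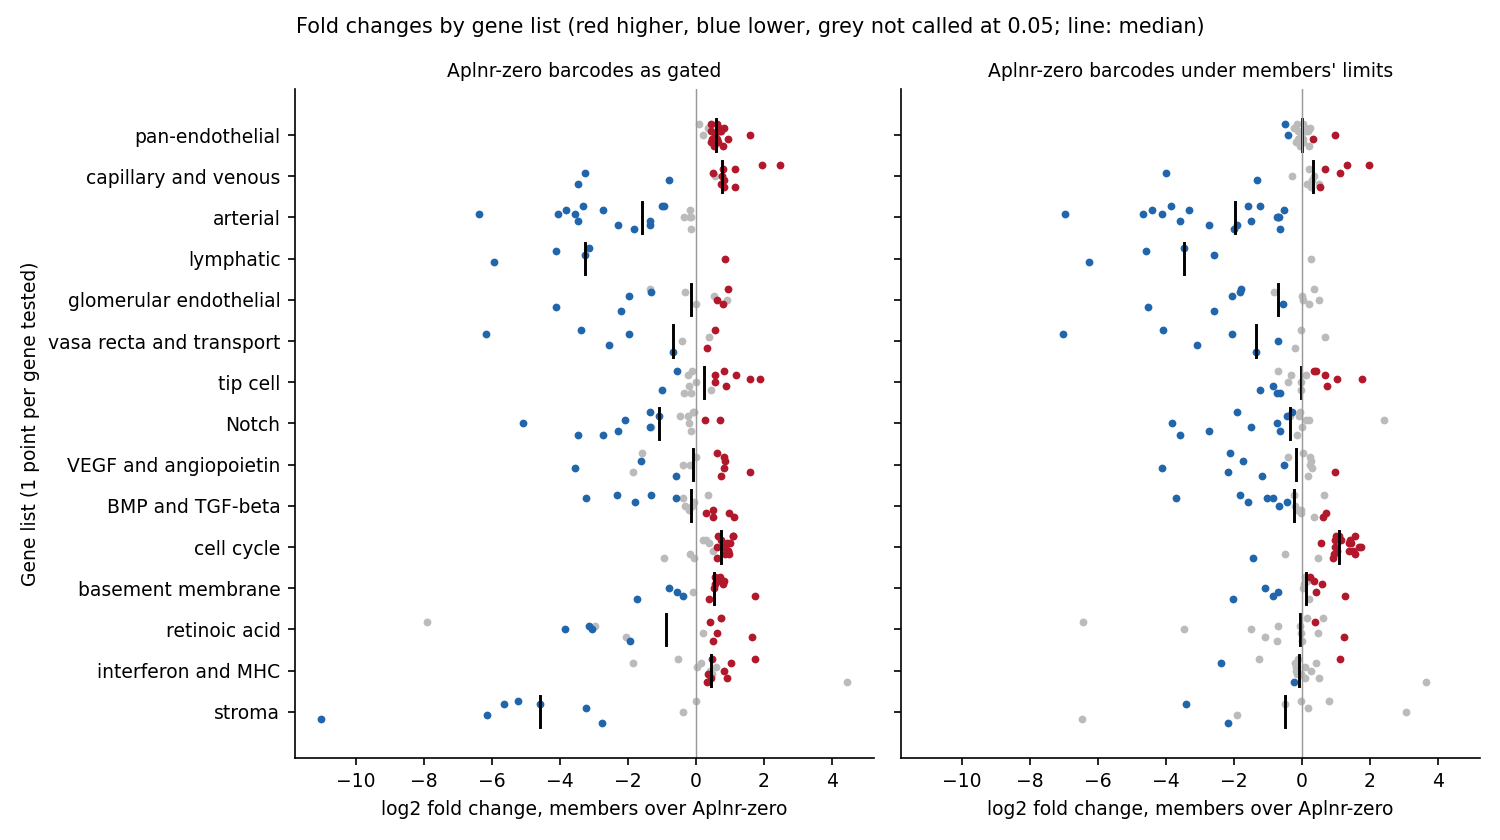
Log2 fold changes of the genes in 15 lists, members (the Aplnr-positive cells) over Aplnr-zero endothelial cells as gated (left) and under the members' Col3a1 and Epcam limits (right), on the same axis; red points were called higher, blue lower, grey not called, and black lines are medians. Arterial genes lie below 0 in both panels and cell cycle genes mostly above it, while the pan-endothelial genes sit at about 0 only on the right.

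Of 17 Notch genes, 2 were higher, close to the 9.1% over all genes, and 8 lower, against 12.4%, as gated (median -1.06). Under equal limits 0 were higher and 9 lower (median -0.35). With barcodes thinned before gating 0 were higher and 3 lower (median -0.34). The ligand Jag1 was at 8.24 and 10.0 CPM against 133 and 83.1, a log2 fold change of -3.47, and the target genes Hey1 (-1.36) and Hey2 (-2.28) were lower. Under equal limits these were -3.59, -1.49 and -2.72, and all 3 passed. The receptors Notch1 (-0.09) and Notch4 (-0.19) did not pass as gated and were lower under equal limits (-0.28 and -0.72). Rbpj was at 39.6 and 44.4 CPM in Aplnr-positive cells and 53.7 and 53.3 in Aplnr-zero cells, with a log2 fold change of -0.22 as gated (adjusted p = 0.206, edgeR's quasi-likelihood test) and -0.44 under equal limits (adjusted p = 0.042). Barcodes with 1 to 100 UMIs, which are mostly empty droplets, carried Rbpj at 63.6 and 57.0 CPM, above both groups as gated. That level gives the share of Rbpj in RNA outside cells, not how much of it entered a cell's barcode. The part of such RNA in the Rbpj counts of either group was not tested. Foxd1, whose locus drives the Cre, was at 1.65 and 2.09 CPM in Aplnr-positive cells and at 37.4 and 34.3 outside the endothelial gate.

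Genes that respond to flow were split. Of 8, 3 were higher (Thbd, Piezo1 and Kdr, at 0.45 to 0.62) and 2 lower (Edn1 and Cav1) as gated, with a median of 0.22, and 0 and 4 under equal limits, with a median of -0.40. Endothelin 1 (Edn1) was at 124 and 75.8 CPM against 457 and 414, a log2 fold change of -2.01 ± 0.13 (adjusted p = 7.28e-04, edgeR's quasi-likelihood test). The water channel Aqp1, found in descending vasa recta, was at 29.5 and 24.7 CPM against 296 and 326 (-3.37). Neither gene's groups overlapped, and under equal limits the values were -2.65 and -4.09. Caveolin Cav1 (-0.68, or -1.34 under equal limits) was lower too, as was the urea transporter Slc14a1, with 1 UMI in the Aplnr-positive cells of each library. The flow-responsive factors Klf2 (0.07) and Klf4 (-0.46) did not pass as gated and were lower under equal limits (-0.56 and -1.11). Of the 9 genes of vasa recta and transport, 2 were higher and 5 lower as gated, and 0 and 6 under equal limits.

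Within the apelin system, 3 of 6 genes other than Aplnr were higher as gated: the ligand Apln, the G protein subunit Gnai2 (0.66) and the arrestin Arrb1 (0.51). Of the 6, 2 were higher under equal limits, where Arrb1 was at 0.0022 and not called, 0 under equal limits within 8000 to 30000 UMIs and 0 with barcodes thinned before gating. Apln, on chromosome X at 48025146 to 48034853, was at 147 and 97.5 CPM in Aplnr-positive cells against 59.8 and 57.8. Its log2 fold change was 1.19 as gated, 0.68 under equal limits and -0.03 under equal limits within 8000 to 30000 UMIs, where it was not called. Of 14 VEGF and angiopoietin genes, 6 were higher and 3 lower as gated, and 1 (Tek) and 6 under equal limits, with the VEGF receptors Kdr at 0.62 and then 0.03 and Flt1 at 0.82 and then 0.23. Vegfc was lower in both (-3.54 and -4.10).

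Cell cycle genes were higher. Of 21 tested, 14 were higher and 0 lower as gated (median 0.74), and 18 higher and 1 lower under equal limits (median 1.09). Mki67 was at 296 and 407 CPM in Aplnr-positive cells, 168 and 189 in Aplnr-zero cells, and 108 and 141 under equal limits. The groups did not overlap, and Mki67 was higher by 1.10 ± 0.13 on the log2 scale (adjusted p = 0.00279, edgeR's quasi-likelihood test), or 1.58 under equal limits. Cyclin B1 (Ccnb1) was higher by 0.82 and 1.74, and the cyclin-dependent kinase Cdk1 by 0.92 and 1.38. The 1 lower gene was the cell cycle inhibitor Cdkn1c, at 381 and 211 CPM against 848 and 410 (-0.94 as gated, not called, and -1.43). With barcodes thinned before gating 2 of the 21 were higher and 2 lower, where 229 and 396 were over all genes. Mki67 (0.65) was called there, and Ccnb1 (0.48) and Cdk1 (0.30) were not.

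Matrix and signalling genes were split. Of 14 basement membrane genes, 9 were higher and 4 lower as gated, and 5 and 4 under equal limits. In both of the other settings, equal limits within 8000 to 30000 UMIs and barcodes thinned before gating, 1 was higher and 4 lower. Col15a1, a collagen of capillary basement membranes, was at 177 and 179 CPM against 64.4 and 49.3 (1.75), while Col18a1, the source of endostatin, was at 65.0 and 78.3 against 238 and 285 (-1.73). Both directions held under equal limits (1.27 and -2.02). In the BMP and TGF-beta list of 16, 5 genes were higher and 5 lower as gated, and 2 and 7 under equal limits. Smad1 (0.97, then 0.72) and Tgfb1 (1.12, then 0.61) were higher in both, and Smad6 (-1.32, then -1.81), Bmp4 (-1.80, then -1.59) and Tmem100 (-3.24, then -3.69) lower. With barcodes thinned before gating 0 of the 16 were higher and 6 lower, with Smad1 at 0.20 and Tgfb1 at 0.16, neither called. The retinoic acid receptor Rarb was at 42.5 and 53.4 CPM against 14.3 and 19.6 (1.65, or 1.25 under equal limits), and 5 of 14 retinoic acid genes were higher and 4 lower as gated, against 2 and 0 under equal limits. With barcodes thinned before gating 0 of the 14 were called either way, with Rarb at 0.47. The antiviral gene Rsad2 was at 524 and 539 CPM against 189 and 160 (1.74 and 1.12). Of 16 interferon and MHC genes 8 were higher and 0 lower as gated, and 1 and 2 under equal limits. Of 12 junction genes, 4 were higher and 1 lower as gated, led by Jam3 (1.44, or 1.14 under equal limits and 0.43, not called, thinned), and 2 and 4 under equal limits. Of 14 Wnt genes, 3 were higher and 5 lower as gated, among them the lower effector Lef1 (-1.89, or -1.90 under equal limits), and 0 and 5 under equal limits. Of 17 genes of glycolysis and hypoxia, 2 were higher and 2 lower as gated, close to the 9.1% and 12.4% over all genes, and 4 and 1 under equal limits. The oxygen sensor Egln3 was at 1.74 and 1.31, and at 0.59, not called, with barcodes thinned before gating. Of 12 immediate early and stress genes, 0 were higher and 1 lower as gated, and 0 and 3 under equal limits.

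Of 5 lymphatic genes tested, 4 were lower and 1 higher as gated, and glomerular genes were mixed. Lyve1 (13.7 and 2.72 CPM against 127 and 250), Prox1 (-3.13), Pdpn (-3.26) and Reln (2 and 1 UMIs in the Aplnr-positive cells) were lower, and all 4 were lower under equal limits too, while Prox1 (-1.91) was not called with barcodes thinned before gating. The VEGF-C receptor Flt4 was higher, at 83.3 and 71.4 CPM against 53.9 and 37.3 (0.88), and was not called under equal limits (0.27) or thinned (0.53). Of 12 glomerular endothelial genes, 3 were higher and 4 lower as gated, and 0 and 6 under equal limits. Ehd3, a glomerular endothelial gene, was at 352 and 189 CPM against 204 and 102, with a log2 fold change of 0.95 as gated, 0.37 under equal limits and -0.69 after thinning before gating. Markers of non-endothelial cells were summed for the Aplnr-positive cells, the Aplnr-zero cells and those under equal limits in turn. The 6 mural markers summed to 83.8 and 75.6 CPM, then 275 and 174, then 428 and 263. The 6 immune markers summed to 161 and 21.6, then 413 and 755, then 564 and 851, and the 6 podocyte markers to 130 and 62.4, then 327 and 174, then 406 and 225. The comparison group thus held more RNA of these 3 types than the Aplnr-positive cells in each library, also under equal limits. The 8 tubule markers, Epcam of the rule included, at 48.0 and 36.8 CPM, then 210 and 1019, then 72.0 and 65.1, and the 6 ureteric markers, at 7.28 and 6.28, then 54.7 and 79.1, then 8.84 and 8.73, came close to the Aplnr-positive level once the limits were equal. The 6 nephron progenitor markers (126 and 101, then 159 and 95.5, then 69.9 and 130) and the 6 erythroid markers (3891 and 4216, then 3264 and 1286, then 5292 and 558) had no common order in the 2 libraries. With barcodes that carried markers of another class left out of both groups, the log2 fold change of Plvap was 1.397. The part of these transcripts in the other differences was not tested.

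A share of Aplnr-positive cells held UMIs of arterial genes. With Sox17 and Gja4 together at 2 UMIs or more, 197 of 468 cells in replicate 1 (42.1%) and 135 of 329 in replicate 2 (41.0%) also met an arterial gate. These cells were deeper, with medians of 11685 and 13038 UMIs against 8299 and 8780 in the rest. Aplnr-positive cells that met the gate held Sox17 more often than Gja4: after thinning, 80.6% and 85.0% of them held Sox17 and 13.4% and 9.45% held Gja4, against 53.1% and 59.3% holding Gja4 in Aplnr-zero arterial-gate cells.

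Between Aplnr-positive cells with and without the arterial gate, 101 of 12335 genes (0.819%) were higher and 47 (0.381%) lower, the gate genes left out. With at most 50000 UMIs per barcode 249 genes were called in all, against 148. The gate chose these cells by 2 arterial genes, so counts of other arterial genes describe the gate. Of 16 such genes, 7 were higher and 0 lower (median 1.53), and 1 was higher and 0 lower with barcodes thinned before gating (median 0.74). With equal limits, which change only the other columns of the fit, 14 were higher. The transcription factor Mecom was at 126 and 152 CPM with the gate and 29.5 and 34.1 without it (2.07), and the glomerular and developmental factor Tbx3 at 121 and 115 against 16.1 and 27.0 (2.42). Pdgfb, which recruits mural cells, was at 209 and 195 CPM against 62.5 and 50.2 (1.77). Nr2f2 was lower with the gate, at 125 and 84.0 CPM against 302 and 287, a log2 fold change of -1.57 ± 0.21 (adjusted p = 0.00691, edgeR's quasi-likelihood test). Car8 (-2.06), the caveolar gene Sdpr (-1.79) and Itga8 (-2.64) were lower too. The levels of these genes, which were picked by their calls, did not overlap between the 2 subsets. The 6 mural markers summed to 130 and 51.0 CPM with the gate and 15.1 and 107 without it, and the 6 immune markers to 244 and 31.9 against 36.8 and 8.53; their part in these differences was not tested. Mecom, Tbx3, Pdgfb, Nr2f2, Car8, Sdpr and Itga8 were among 9 higher and 4 lower ones called in each of the 4 settings. By the naming rule the highest were Cxcr4, Fam46a, Magix, Gata5, 8430408G22Rik and Hey1 (3.40 to 4.45) and the lowest Itga8, Nlgn1, Nphs1, Dpp4, Car8 and Lhx6 (-2.64 to -2.04), of which Itga8 and Car8 were called with barcodes thinned before gating. Mki67 was at 292 and 432 against 303 and 375 CPM, with overlapping values.

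**Figure D4:**
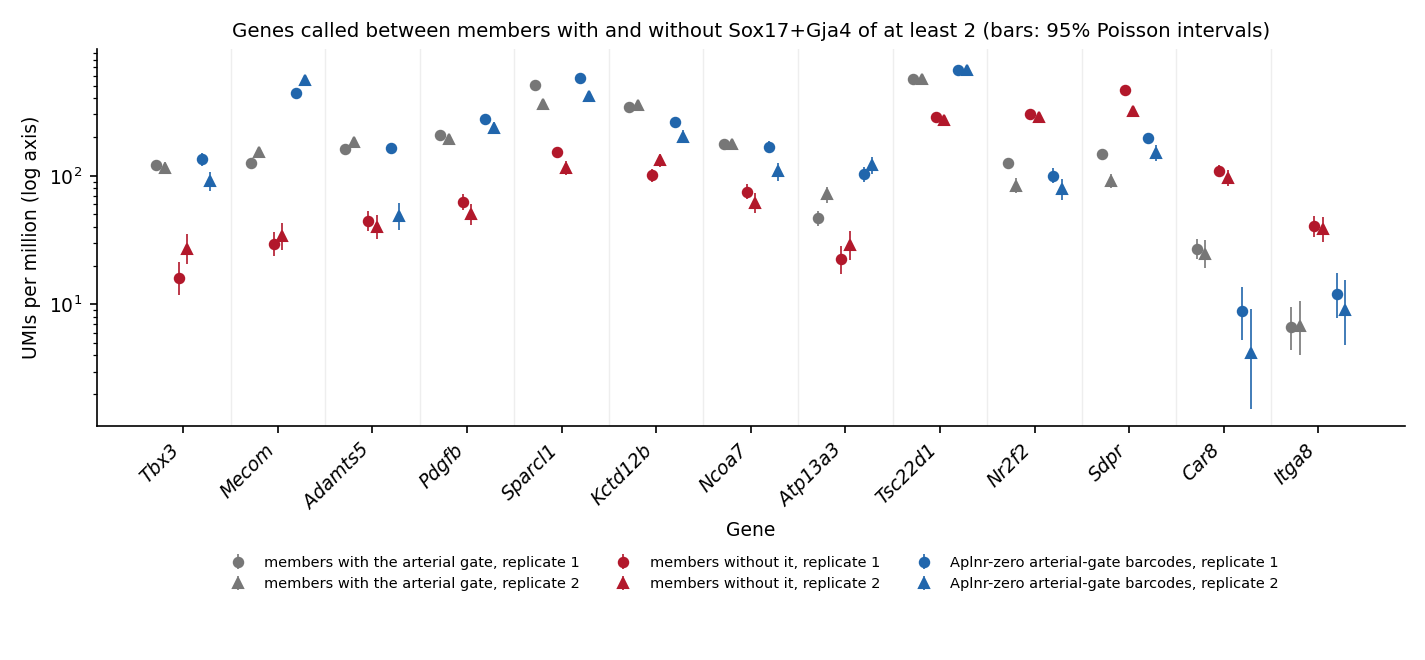
Level in CPM (log axis) of the 13 genes called in each of 4 settings between members (Aplnr-positive cells) with and without Sox17 and Gja4 at 2 UMIs or more, beside Aplnr-zero arterial-gate cells, in each library, with 95% Poisson intervals. For Tbx3, Pdgfb, Sparcl1 and Nr2f2 the members with the gate lie near the Aplnr-zero arterial-gate cells, while their Mecom lies between the other groups.

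Aplnr-positive cells without the arterial gate were then set against Aplnr-zero cells with it (167 and 98 cells, medians 8581 and 8729 UMIs). Of 12335 genes, 538 (4.36%) were higher and 756 (6.13%) lower, and 242 and 320 of them were called in all 4 settings. The 6 mural markers summed to 15.1 and 107 CPM in these Aplnr-positive cells and 393 and 236 in the arterial cells, with Acta2 called lower. The 6 podocyte markers summed to 186 and 91.0 against 394 and 189, with Synpo called lower. The part of these transcripts in the differences was not tested. All 16 arterial genes tested were lower (median -4.18, against -0.045 over all genes tested). The arterial gate split the groups, so this count and the arterial genes named next describe the gate. Gja5 was at 0.344 and 0.474 CPM against 89.5 and 106, so that the arterial cells were 241-fold higher by direct ratio (95% interval 66.3 to 2000). Cxcl12 was at 6.87 and 2.37 CPM against 516 and 615 (-6.68), and the Notch target Hey1 was lower as well (-4.48). On the other side, Plvap was at 1147 and 1047 CPM against 287 and 175 (2.38), Tek at 371 and 334 against 124 and 74.7 (1.96), and Nr2f2 at 302 and 287 against 100 and 78.9 (1.86). The largest decreases by the naming rule were of Gja5, Cxcl12, Gm9946, Fbln5, Bmx and Sost, and the largest increases of Nlgn1, Car8, Gpr182, Lhx6, Ada and the prostaglandin synthase Ptgs1, the last at 78.3 and 108 CPM against 5.10 and 13.3 (3.56). Neither Plvap, Tek nor Ptgs1 overlapped between the groups. Cell cycle genes were higher here in 12 of 21 cases and lower in 1, and in 11 and 0 with barcodes thinned before gating. Mki67 was at 303 and 375 CPM against 122 and 205 (1.21).

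Against Aplnr-zero cells with an Ehd3 UMI and no arterial gate, 371 of 12334 genes (3.01%) were higher and 622 (5.04%) lower. That group held only 53 and 21 cells, of which 3 in replicate 1 exceeded 50000 UMIs and held 52.5% of that library's UMIs in the group. The 6 nephron progenitor markers summed to 371 and 313 CPM there against 156 and 120 in the Aplnr-positive cells, with 4 of 6 called lower in the latter as gated and 0 under equal limits. The 6 podocyte markers summed to 274 and 159 against 186 and 91.0, with Wt1 called lower, and the 8 tubule markers to 264 and 82.7 against 81.4 and 46.0. The part of these barcodes and markers in the differences was not tested. At most 50000 UMIs per barcode left 360 genes called in all, against 993. Most of the calls did not hold when settings changed: 2 higher genes and 16 lower ones were called in all 4. The 2 higher were Igf1, at 359 and 327 CPM against 55.8 and 142 (2.31), and Marcks (1.09). Among the highest by the naming rule, Nrgn was called under equal limits, and Ces2e, Crnde, Reep1 and AI662270 were not. Ehd3, a glomerular gene, chose the comparison group, so its other glomerular genes describe that choice. Of 11 of these tested, 0 were higher and 2 lower, where 5.04% of all genes were lower. The 2 were Plat, tissue plasminogen activator, at 54.3 and 61.1 CPM against 246 and 207 (-1.82), and Tbx3 (-1.98). Edn1 (-2.64) and the matricellular genes Ctgf (-3.75) and Cyr61 (-3.22) were lower too. Plat values did not overlap between the groups. The decreases of Lhx1, Wnt4, Uncx, Mdk, Gm266 and Vcan, the largest by the naming rule, were not called under equal limits.

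Apln and its receptor were found together in a part of the cells. An Apln UMI was present in 167 Aplnr-positive cells of replicate 1 and 123 of replicate 2, 35.7% and 37.4%. These cells were also deeper, with medians of 14128 and 11729 UMIs against 7909 and 9695, and 19 and 9 of them exceeded 50000 UMIs, against 2 and 1 of the rest. Outside the endothelial gate 3.42% and 3.12% of barcodes held an Apln UMI, at median depths of 12314 and 12525 UMIs. With an Apln UMI, 166 of 12803 genes (1.3%) were higher and 89 (0.695%) lower. With at most 50000 UMIs per barcode 84 were called in all, against 255. By the naming rule the highest were Tagln (3.96) and Acta2 (3.46), both mural cell genes, Kcne3 (3.60), Cxcr4 (3.55), Meg3 (3.17) and Cyr61 (3.11), and the lowest Thrsp, Lbp, Car8, Calml4, Rassf9 and Tgm2 (-1.67 to -1.17). Leaving out 1 library moved Kcne3 to 4.79 without replicate 1 and 2.35 without replicate 2, Meg3 to 1.87 and 4.57, and Cyr61 to 2.06 and 3.96. Of these 12 genes, Cyr61 was called with barcodes thinned before gating, where Tagln was at -0.07 and Acta2 at -1.05. The 6 mural markers summed to 138 and 148 CPM with an Apln UMI and 14.1 and 8.09 without, and the 6 immune markers to 232 and 36.0 against 71.1 and 8.09. The part of this mural and immune RNA in the differences was not tested. Of 15 tip cell genes other than Apln, 10 were higher and 1 lower, and 0 were called either way with barcodes thinned before gating. Equal limits alone change only the other columns of this fit. Called in all 4 settings were 7 higher genes, among them Ctgf (109 and 81.5 CPM against 13.5 and 19.0, a log2 fold change of 2.51), Cyr61 (149 and 79.4 against 9.08 and 17.8, 3.11), Igfbp3 (269 and 199 against 70.8 and 70.0, 1.65) and Edn1 (194 and 108 against 34.1 and 45.3, 1.86). Hapln1, Igfbp7 and Tpm1 were the others. The 2 lower genes called in all 4 settings were the taurine transporter Slc6a6 (-0.72) and 1810011O10Rik (-0.70). Values with and without Apln did not overlap for Ctgf, Cyr61, Igfbp3 or Edn1, which were picked by their calls, so this is no separate support. Tek was lower with Apln, at 201 and 196 CPM against 316 and 277 (-0.66). It was not called under equal limits within 8000 to 30000 UMIs (-0.24) or with barcodes thinned before gating (-0.30).

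The last comparison was with all other kept barcodes (5467 and 4658), which span the kidney's cell types. They left out the Aplnr-zero endothelial cells and held 61 and 44 Aplnr-positive endothelial barcodes beyond the Col3a1 or Epcam limit. Against them, 3773 of 13555 genes (27.8%) were higher and 4022 (29.7%) lower. All 20 pan-endothelial genes were higher (median 6.18). The gate used Pecam1 and Cdh5, so this count describes the gate. By the naming rule, the first were Gpihbp1, which carries lipoprotein lipase across capillaries, at 1029 and 629 CPM against 6.73 and 7.12 (7.05), and Thrsp (6.87). Robo4 (6.74) and the adhesion receptor Adgrl4 (6.70) are endothelial genes, and Nr5a2, Rtp3, Nos2, Lhx6, Fam167b and Exoc3l completed the 10. Of these, Robo4 was at 195 and 164 CPM against 1.88 and 1.88. Of the flow-responsive genes 8 of 8 were higher, of the tip cell genes 14 of 16, and 9 of 9 stromal genes other than Col3a1, 5 of 5 mural genes tested and 6 of 6 podocyte genes were lower. The gate chose endothelial cells with little Col3a1 and no Epcam, so these counts describe the gate too.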

How the data were processed

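The authors deposited unfiltered matrices of UMI counts per gene and barcode for 2 mutant libraries. The file headers name Cell Ranger 4 and the submitters' processing notes name Cell Ranger 6.0.1 and the mm10 genome build, and which version made the counts could not be settled. Members and gene lists were chosen with earlier results of these data known.

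Barcodes were filtered and gated as the report gives. No doublet caller was run; the Col3a1 and Epcam limits, a limit of 50000 UMIs and the removal of barcodes with markers of another class stood in its place. Counts were summed per library and group and tested with edgeR 4.0.16 (R 4.3.3) by its quasi-likelihood test, with TMM scaling, a filter on low counts (filterByExpr) and the library as a block, in fits of 6, 12 or 8 columns with 2, 5 or 3 residual degrees of freedom. The Benjamini-Hochberg adjustment ran over every gene in a fit, with a threshold of 0.05. The block is the library itself, since the groups compared are cells of the same 2 libraries. It takes out the general difference between the libraries. Each fit also held the sum of all other kept barcodes, which entered the estimate of spread. DESeq2 1.42.0 was an alternative. Shares were computed in Python 3.11.15 with scipy 1.17.1, unthinned and with barcodes thinned to 4600 UMIs. The tests were tried on simulated data.

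Genes named were the 12 highest and 12 lowest called log2 fold changes against Aplnr-zero cells (at least 30 UMIs per library over both groups, same sign in both libraries), the 10 highest against all other barcodes, the 6 highest and 6 lowest in the other comparisons, and genes of 29 lists (302 of 303 listed genes matched 1 feature). Igf1, Irx3, Marcks and genes called in all 4 settings were picked after their values were seen. Comparisons of subsets of Aplnr-positive cells with each other were added after seeing the data. Whether values overlapped between groups was stated mostly for genes already called, and the share of such genes over all features is not given. Of the genes picked by this rule, 1 is not reported here. Coordinates are from the RefSeq gene table of GRCm38.p6.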

Additional observations from a re-analysis of the deposited data

Results flagged for a closer look

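The feature list holds a reporter, EYFP, that the comparisons above do not use. In the Aplnr-positive cells it was at 13.6 CPM in replicate 1 and 9.21 in replicate 2 (99 and 44 UMIs, found in 8.12% and 4.56% of cells). Barcodes outside the endothelial gate were at 66.2 and 62.1 CPM, and barcodes with 1 to 100 UMIs, which are mostly empty droplets, at 48.0 and 49.0. The level in the Aplnr-positive cells was thus above the limit that a count of 0 allows and below that of nearly empty barcodes. The labels name no EYFP allele.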

How the results depend on the processing

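Against Aplnr-zero cells, 2908 genes were called as gated, 1432 with at most 5% mitochondrial UMIs, 1799 within 8000 to 30000 UMIs, 1571 with equal limits in that window and 625 with barcodes thinned to 4600 UMIs before gating. With only the 2 endothelial groups in the fit, which leaves 1 residual degree of freedom, 2279 were called. For cells without the arterial gate against Aplnr-zero arterial-gate cells, 1294 became 2207 (at most 50000 UMIs), 747 (5% mitochondrial), 2630 (barcodes with markers of another class left out), 2499 (equal limits) and 2015 (no filter on low counts). Against Ehd3 cells, 993 became 360, 244, 69 (8000 to 30000 UMIs), 107 (thinned), 304 (equal limits), 85 (limits and window) and 1767 (no filter), the first 2 with at most 50000 UMIs and 5% mitochondrial. With and without the arterial gate, 148 became 249 (at most 50000 UMIs), 55 (5% mitochondrial), 663 (markers left out), 34 (thinned), 954 (equal limits, which here change only other columns of the fit), 638 (no filter) and 406 (DESeq2). With and without Apln, 255 became 84 (at most 50000 UMIs), 462 (markers left out), 153 (Aplnr of at least 2), 47 (window), 17 (thinned), 610 (equal limits, again only other columns), 23 (limits and window), 890 (no filter), 100 (no replicate block) and 526 (DESeq2). The call count against all other barcodes stayed within 1.5 times of 7795. The causes were not tested. The log2 fold change of Cyp26b1 was 0.15 in the window, 0.97 with 5% mitochondrial UMIs, 0.35 with at most 50000 UMIs, 0.21 with markers left out, 0.15 with equal limits, 0.19 with limits and window, 0.036 thinned and 0.82 without the replicate block. The member share was 4.66% with 5% mitochondrial UMIs and 5.14% thinned, and the share of endothelial-gate barcodes with an Aplnr UMI, 67.4% ± 3.35 (SD, n = 2), was 70.7% at 5000 UMIs or more, 54.3% with 5% mitochondrial UMIs and 52.1% thinned. Fitted directions reversed for Wnt4 (10.54 with equal limits, 10.45 with limits and window) and Gm266 (0.12 with equal limits) against Ehd3 cells, for Dpp4 (0.037 thinned) between arterial-gate subsets, and for Tagln (-0.065 thinned) and Acta2 (-0.19 in the window and with limits and window, -1.05 thinned) with Apln. Wnt4 was not called in these settings (adjusted p = 0.405 and 0.699, edgeR's quasi-likelihood test). Neither were Gm266, Dpp4 and Tagln in theirs, nor Acta2 with limits and window or thinned. Values resting on at most 3 UMIs in both groups were left out of this comparison of settings; among them the fitted sign also turned for Erbb4 against Aplnr-zero cells (6.36 with equal limits, 5.69 with limits and window, 0.037 thinned) and for Cxcr4 with Apln (-6.24 thinned). Leaving out either library gave fold changes only, with no test; the naming rule already required the same sign in both libraries. Besides Kcne3, Meg3 and Cyr61, it moved the log2 fold change by over 1.5 times for Gpr182 against Aplnr-zero arterial-gate cells (6.06 without replicate 1), for Nrgn (1.67 without replicate 1) and AI662270 (0.70) against Ehd3 cells, and for Smoc2, Gm9946, Fst, Nlgn1, Sost, Ces2e, Crnde and Cxcr4 (arterial-gate subsets), which have a library with 0 UMIs in 1 group.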

Other observations

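Genes of ribosomal proteins were chosen as a group after their values were seen. Of 78 tested, 29 were higher and 0 lower in Aplnr-positive than in Aplnr-zero endothelial cells as gated, where 9.1% of all genes were higher, with a median log2 fold change of 0.18 and a range from -0.04 to 0.44. The other 49 did not pass. Under equal Col3a1 and Epcam limits 75 were higher, where 7.22% of all genes were higher. With barcodes thinned to 4600 UMIs before gating, 70 were higher, where 229 were over all genes. Between Aplnr-positive cells without the arterial gate and Aplnr-zero cells with it, 39 of 78 were higher (median 0.43), where 4.36% of all genes were higher. Under equal limits 76 were higher there, where 1220 were over all genes.

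The Aplnr-positive cells of the 2 libraries resembled each other, with a Pearson correlation of 0.993 over 28693 genes of 2 libraries, which share a protocol and differ in depth. Among 3368 genes with at least 50 CPM, 8 were over 2-fold higher in replicate 1 and 4 in replicate 2. The largest differences were in Xist (1053 CPM in replicate 1 against 0) and Gm10709 (377 against 4.81). Those higher in replicate 1 also included Dlk1 (228 against 31.2 CPM), Sepp1 (214 against 95.9), S100a6 (306 against 129) and Maf (102 against 40.4), and the histone gene Hist1h2ap was higher in replicate 2 (393 against 1079). Cyp26b1 was among the 4 higher in replicate 2.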
